A study of Mus musculus with 4 samples.

Results

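Nkg7 and the genes next to it on mouse chromosome 7 were described here in CD8 T cells with and without the transcription factor Klf13. The 4 genes are Lim2, Nkg7, Cldnd2 and Etfb, in chromosomal order, and RefSeq places no other gene between them. They are 4 of the 19938 genes read from the arrays. Nkg7 was taken up because of its difference between knockout and wild type on these same arrays, and its neighbours were listed by position with that difference known. The difference between the groups is therefore given for the 4 genes as a description, with no test. Each gene had 1 probe set paired with its symbol alone: 10552398 for Lim2, 10552406 for Nkg7, 10552412 for Cldnd2 and 10552418 for Etfb.

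Total RNA came from flow-sorted naive CD8 T cells of BALB/c spleens, and each sample was hybridised to an Affymetrix array of its own. The 2 Klf13 knockout (KO) samples and the 2 wild-type (WT) samples are the groups compared, and no treatment, time course or age is given in the labels. The sources used here do not give the deleted part of Klf13, nor say whether the deletion was limited to T cells or whether replicate samples are separate animals. The p-values therefore reflect the variation among these 4 samples, which could be technical. Values are log2 probe-set values, on which a difference of 1 is a doubling. Fold changes are KO minus WT.

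Nkg7 encodes a small membrane protein of cytotoxic granules, made by natural killer (NK) cells and by CD8 T cells with effector or memory traits, and it takes part in the release of those granules. Its neighbours Lim2 and Cldnd2 belong with it to the PMP22/claudin family of proteins that cross the membrane several times. Lim2 is a membrane protein of lens fibre cells, and little is known of Cldnd2. Etfb is unrelated to these and encodes the beta subunit of the mitochondrial electron transfer flavoprotein, which accepts electrons from acyl-CoA dehydrogenases. Klf13 belongs to the SP/KLF family of zinc-finger factors, which bind GC-rich and CACCC-type boxes.

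The upstream sequences of the 4 genes are shown because the question is whether neighbours with different values differ in the boxes that such factors bind. Each is the 250 bases before the transcript start in RefSeq's annotation of GRCm38.p6, on the plus strand, read 5′ to 3′; all 4 genes matched. The array table names no genome build. Capitals mark matches, on either strand, to the KLF-type box CACCC and to the T-box half-site AGGTGTG, the kind of site bound by Eomes and Tbx21.
Lim2, chr7:43429849-43430098: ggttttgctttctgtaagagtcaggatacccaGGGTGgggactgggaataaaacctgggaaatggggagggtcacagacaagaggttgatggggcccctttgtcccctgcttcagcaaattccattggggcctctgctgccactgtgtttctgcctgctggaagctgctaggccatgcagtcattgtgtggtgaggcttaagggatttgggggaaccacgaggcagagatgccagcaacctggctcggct
Nkg7, chr7:43436888-43437137: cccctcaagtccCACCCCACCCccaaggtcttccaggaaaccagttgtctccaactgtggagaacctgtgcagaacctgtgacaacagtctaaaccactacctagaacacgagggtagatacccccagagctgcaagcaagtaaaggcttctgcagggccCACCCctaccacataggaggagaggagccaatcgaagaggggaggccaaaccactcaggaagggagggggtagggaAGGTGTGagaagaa
Cldnd2, chr7:43440566-43440815: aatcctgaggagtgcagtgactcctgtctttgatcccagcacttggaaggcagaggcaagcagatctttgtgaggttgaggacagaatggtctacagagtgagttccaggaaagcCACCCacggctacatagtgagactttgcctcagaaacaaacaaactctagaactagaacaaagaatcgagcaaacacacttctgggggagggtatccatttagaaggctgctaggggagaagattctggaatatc
Etfb, chr7:43443822-43444071: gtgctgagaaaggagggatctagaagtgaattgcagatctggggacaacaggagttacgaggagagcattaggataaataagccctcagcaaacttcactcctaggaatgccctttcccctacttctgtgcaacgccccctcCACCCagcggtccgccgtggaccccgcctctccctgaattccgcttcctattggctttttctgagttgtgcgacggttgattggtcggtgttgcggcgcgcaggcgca

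The Nkg7 window held 3 CACCC boxes, and 6.92% of 32851 mouse promoter windows of this length held 3 or more. The windows of Lim2, Cldnd2 and Etfb held 1 each, as 52.0% of all windows held at least 1. In the Nkg7 window, 2 of the boxes lay side by side, between 229 and 238 bases before the start, and the third 86 to 90 bases before it. AGGTGTG was found in the Nkg7 window, 8 to 14 bases before the start, and in 5.10% of all windows; it was not found in the other 3. The GC box GGGCGG (32.7% of all windows) and the 7-base Runx-type string TGTGGTT (4.40%) were found in none of the 4. Shorter forms of the Runx site were not counted, and TGTGGT or its reverse complement occurs in the windows of Lim2 and Nkg7. None of these motifs overlapped another, and the GC content was 55.6% for Lim2, 56.0% for Nkg7, 47.6% for Cldnd2 and 55.6% for Etfb, against a median of 52.4% over all windows. These matches describe letters in the sequence and are no measure of binding.

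**Figure D1:**
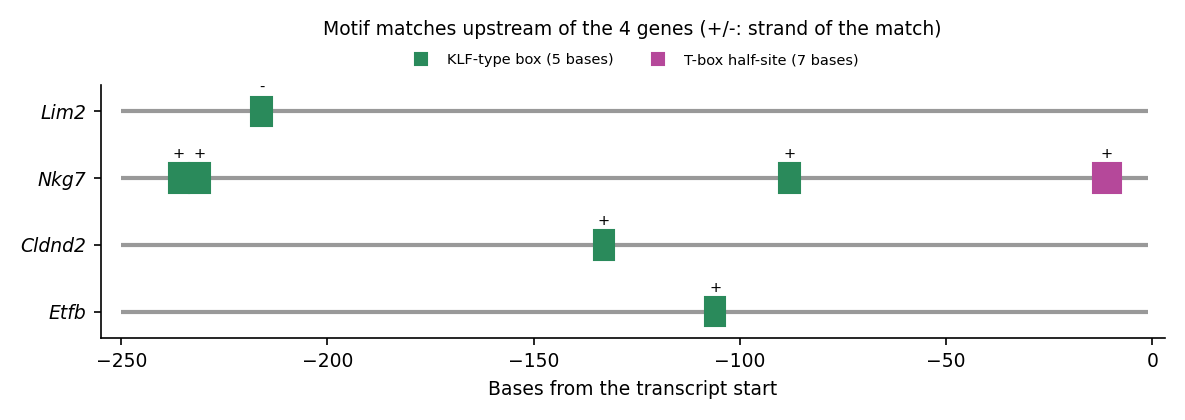
Matches to the 5-base KLF-type box (green) and the 7-base T-box half-site (purple) in the 250 bases before the start of Lim2, Nkg7, Cldnd2 and Etfb; the x axis is the distance from the transcript start in bases, and + or - is the strand of the match. Nkg7 has 3 boxes and the half-site, and the other genes have 1 box each.

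Klf13, the targeted gene, gave 5.46 and 5.43 on the knockout arrays and 7.01 and 7.15 on the wild-type arrays. It was 3.10-fold lower in the knockout (log2 fold change -1.63, SE 0.10, limma adjusted p = 3.75e-05). A probe set outside the deleted part would check nothing about the allele. The CD8 chain genes Cd8a and Cd8b1 lay between 10.9 and 11.3 on all 4 arrays, and of 13 measured T cell identity genes 0 passed the limma test, with 2 at an unadjusted p under 0.05 (16.6% of all genes). Over all genes 448 passed at a Benjamini-Hochberg adjusted p under 0.05 (2.25%), 238 higher and 210 lower in the knockout. The number rests on single arrays and on scaling: it was 264 without KO replicate 1, 1536 without KO replicate 2 and 277 without WT replicate 1, and median centring gave 1088, of which 21.8% were higher against 53.1%.

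Nkg7 gave 6.32 and 6.58 on the knockout arrays and 10.95 and 10.90 on the wild-type arrays. The lower wild-type array lay 4.32 log2 units above the higher knockout array. The means were 6.45 ± 0.18 in the knockout and 10.9 ± 0.03 in the wild type (SD, n = 2), a log2 difference of -4.47 or 22.2-fold. No other of the 19938 genes had a lower fold change, and none had a larger one in either direction. Leaving out any single array gave 20.3 to 24.3-fold. Fewer cells with the transcript and less of it per cell cannot be told apart in such bulk samples.

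Cldnd2, the next gene after Nkg7, gave 3.28 and 3.43 on the knockout arrays and 4.78 and 4.37 on the wild-type arrays. The groups did not overlap, and the wild-type arrays were further from each other than the knockout arrays. The means were 3.35 ± 0.10 in the knockout and 4.58 ± 0.29 in the wild type (SD, n = 2), a log2 difference of -1.22 or 2.34-fold. Its fold change was the 10th lowest of all genes. Without WT replicate 1 it was 2.03-fold and without WT replicate 2 it was 2.69-fold. The knockout values lay below the median of all genes on those arrays (4.71 and 4.66). So did WT replicate 2 (4.37 against 4.61), and only WT replicate 1 lay above the median of its array (4.78 against 4.59). No detection calls were used, so these arrays do not settle whether any Cldnd2 transcript was left.

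Etfb, the gene after Cldnd2, gave 7.50 and 7.56 on the knockout arrays and 7.76 and 7.89 on the wild-type arrays. The knockout arrays were lower by a small margin, with 0.20 log2 units between the nearest arrays of the groups. The means were 7.53 ± 0.04 and 7.82 ± 0.09 (SD, n = 2), a log2 difference of -0.29 or 1.22-fold. In RefSeq the end of Cldnd2 overlaps the start of Etfb by 59 bases on the same strand, so a probe there could read either transcript.

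Lim2, which lies before Nkg7, was higher in the knockout, at 4.50 and 4.30 against 4.24 and 3.98 in the wild type. The nearest arrays of the groups were 0.06 log2 units apart, less than the SD of either group. The means were 4.40 ± 0.14 and 4.11 ± 0.18 (SD, n = 2), a log2 difference of 0.29 or 1.22-fold. All 4 Lim2 values lay below the median of all genes on their arrays. The direction of each of the 4 genes was kept after a further quantile normalization and after centring on array medians.

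Nkg7 and Cldnd2 were thus at least 2-fold lower in the knockout, as were 16 genes in all (0.0802% of those tested), while Etfb and Lim2 differed by 1.22-fold in opposite directions. In none of the 4 genes did the groups overlap. That holds for 47.6% of all genes with 2 arrays a group, and since these arrays were used to choose Nkg7, nothing is read from it.

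**Figure D2:**
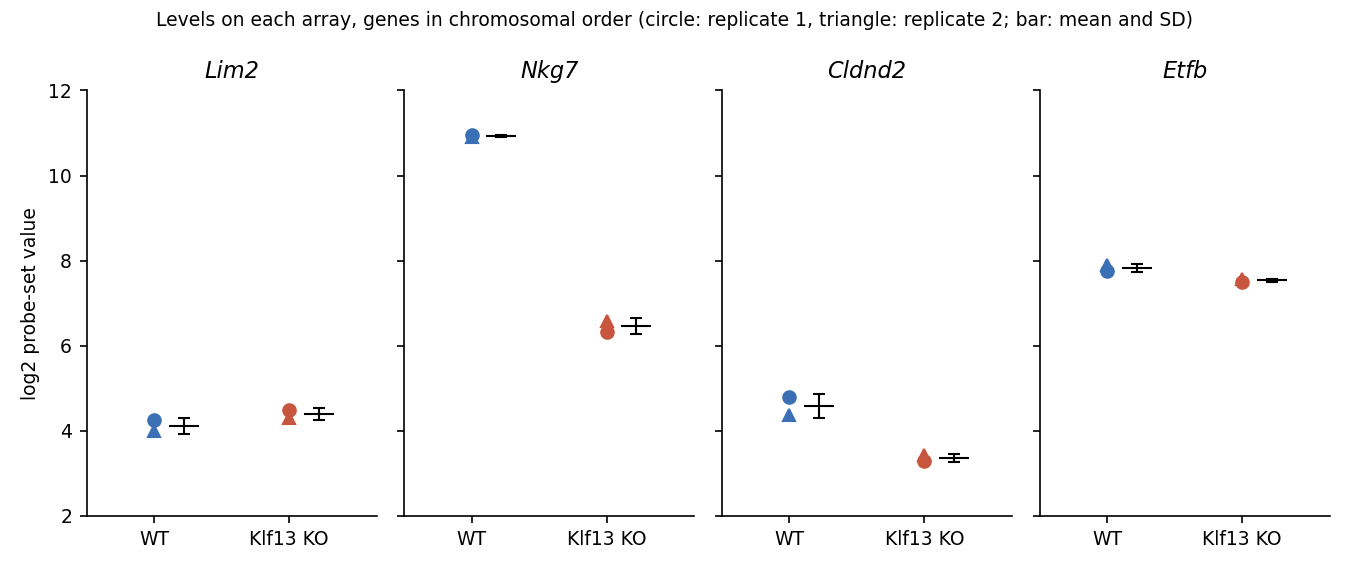
Log2 probe-set values of Lim2, Nkg7, Cldnd2 and Etfb (panels in chromosomal order) on each wild-type (blue) and Klf13 knockout (red) array; circles are replicate 1, triangles replicate 2, and black bars the mean and SD of 2 arrays. Nkg7 moves from 10.9 to 6.45 and Cldnd2 from 4.58 to 3.35, while Etfb and Lim2 differ by 0.29.

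Differences within an array remove any scaling common to its genes. Nkg7 minus Etfb was -1.18 and -0.98 on the knockout arrays and 3.19 and 3.02 on the wild-type arrays, a change of -4.18. Nkg7 minus Lim2 changed by -4.76, and Nkg7 minus Cldnd2 by -3.25, from 6.16 and 6.53 in the wild type to 3.04 and 3.16 in the knockout. Nkg7 changed more than each neighbour on every pairing of arrays. Nkg7 was chosen for its difference, which was the largest of all genes, so this order was fixed in advance. Cldnd2 minus Etfb was -4.22 and -4.14 in the knockout and -2.97 and -3.52 in the wild type, so Cldnd2 in turn changed more than Etfb, by 0.93. With 2 arrays a group an exact two-sided permutation test cannot go below p = 0.333, and no test was made of these differences.

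Beyond the 4 genes the neighbourhood was read from the 10 measured genes on each side, chosen by position alone. Of these 20 genes, 0 passed the limma test in either direction, against 2.25% of all genes; 4 had an unadjusted p under 0.05, 3 of them lower and 1 higher in the knockout, where 16.6% of all genes did. Fold changes were negative for 10 and positive for 10, with a median of 0.01 beside 0.02 for all genes. They ran from -0.39 to 0.26. The lowest 95% limma bound of any of the 20 was -0.68, of the zinc-finger gene Zfp715. A fall of the size of Nkg7's, or of Cldnd2's, lies outside the interval of each. Only 5 of the 20 were among the brighter 9969 genes. Of these, 4 were negative and 0 passed, where 606 of all 9969 did. Their median was -0.19 beside -0.06 for all brighter genes. Genes already dim in the wild type have little room to fall, so their intervals cannot decide whether the locus fell.

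The nearest gene before Lim2 is Siglecg, an inhibitory sialic acid receptor of B cells, which gave 4.29 and 4.22 in the knockout and 4.19 and 4.20 in the wild type (log2 fold change 0.06, 95% limma interval -0.14 to 0.27). Next come Siglecf, a receptor of eosinophils, at 0.22 (-0.01 to 0.45), and Zfp715 at -0.36 (-0.68 to -0.04, limma adjusted p = 0.244). Zfp715 was higher than its KO replicate 1 value of 5.44 on the other 3 arrays (5.88, 6.13 and 5.91). After Etfb come Vsig10l at 0.23 (-0.02 to 0.48), Iglon5, a neuronal adhesion protein gene, at 0.02 (-0.23 to 0.27), and 4931406B18Rik at 0.09 (-0.16 to 0.34). None of these 6 passed. Zfp715 passed without KO replicate 2, and AI987944, picked out here after its value was seen as the lowest of the 20 (-0.39), passed without WT replicate 2 and after median centring.

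With 25 genes on each side, 1 of 50 was called, and with 50 on each side, 3 of 100. The closest called gene before the run was Pop4, a subunit of RNase P and RNase MRP, 16 places away and higher in the knockout (6.93 and 7.03 against 6.39 and 6.25; log2 fold change 0.66, SE 0.10, limma adjusted p = 0.00789). The closest after it was 2410002F23Rik, 36 places away and lower (6.57 and 6.67 against 7.47 and 7.31; -0.77, SE 0.10, limma adjusted p = 0.00363). Napsa, an aspartic protease gene, 50 places after the run, was higher (0.74, SE 0.12, limma adjusted p = 0.01). These 3 were named after their values were seen. Klf13 lies on the same chromosome, with 204 measured genes between Etfb and it. Of the 1730 measured genes of chromosome 7 other than the 4, 26 were lower and 19 higher (2.60% called).

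**Figure D3:**
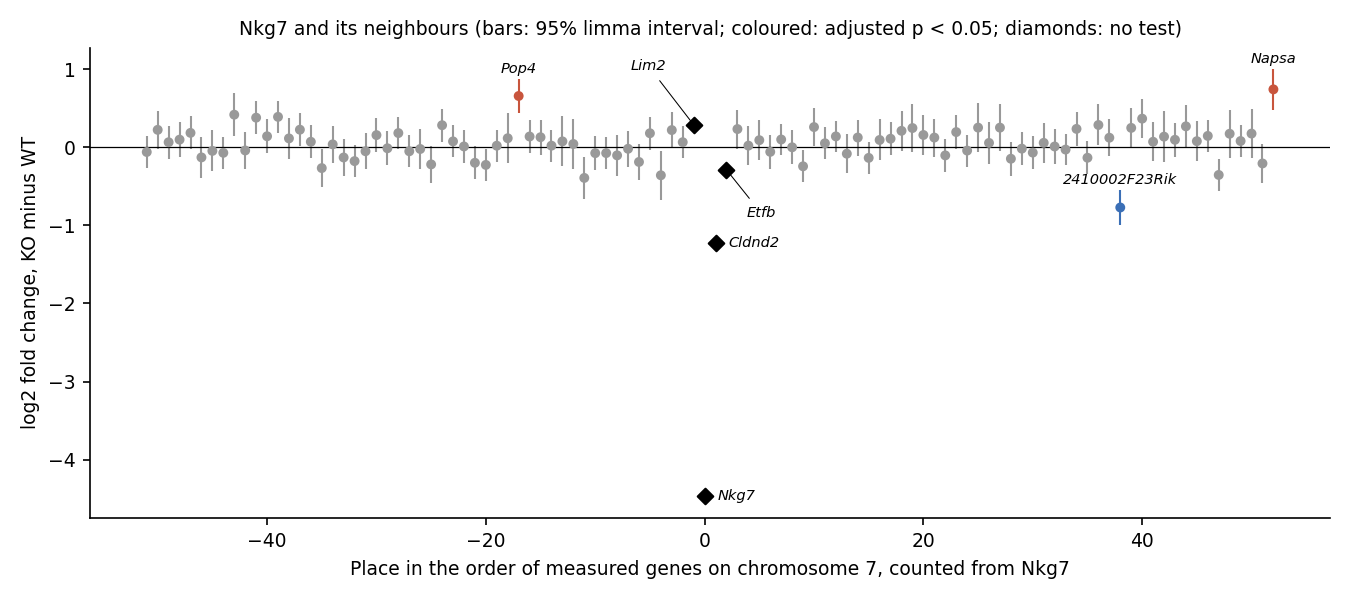
Log2 fold change (KO minus WT) of Nkg7 and the 50 measured genes on each side of the run of 4, by place in the gene order of chromosome 7 counted from Nkg7. Black diamonds are the 4 genes, given without a test, bars are 95% limma intervals of the others, and colours mark an adjusted p under 0.05 (red higher, blue lower). Nkg7 at -4.47 and Cldnd2 at -1.22 stand below their neighbours, and 3 of 100 others are called.

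Of 9 measured members of the PMP22/claudin family outside the locus, 0 passed the limma test, with 3 at an unadjusted p under 0.05, where 16.6% of all genes were; 7 had positive fold changes, also under both scaling alternatives, and the median was 0.18 beside 0.02 for all genes. Emp3, a family member of blood cells that also lies on chromosome 7, gave 9.49 and 9.61 in the knockout and 9.14 and 9.18 in the wild type (0.39, SE 0.09, limma adjusted p = 0.0689), and it passed after a further quantile normalization. Tmem114 was at 0.38 (limma adjusted p = 0.218), the myelin gene Pmp22 at 0.24 (0.297) and Emp1 at 0.23 (0.453). The lowest 95% bound among the 9 was -0.24, of Tmem235. Of the 9, 4 were among the brighter 9969 genes, with a median of 0.24. The median of all the brighter genes was -0.06, so the all-gene median varied with signal level.

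The Siglec family, which has members on both sides of the 4 genes, showed 0 calls among 9 measured, and 0 at an unadjusted p under 0.05 by the limma test, against 16.6% of all genes. The median was 0.08. The fold changes of Siglecf (0.22), Siglece (0.14), Siglech (0.12) and Cd33 (0.10) were positive; of the 9 members 7 were positive, but 5 and 4 after quantile normalization and median centring.

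Among genes that work with Nkg7 in granule-mediated killing, 3 of 21 fell, 0 rose and 18 did not pass (limma adjusted p under 0.05, against 1.05% of all genes called lower), and 9 had an unadjusted p under 0.05, against 16.6%. The granzyme gene Gzmb, a protease of the granules, gave 5.48 and 5.60 in the knockout and 6.56 and 6.44 in the wild type (log2 fold change -0.96, SE 0.10, limma adjusted p = 8.17e-04). The perforin gene Prf1, whose product opens the target membrane, gave 7.01 and 7.33 against 8.128 and 8.005 (-0.89, SE 0.12, limma adjusted p = 0.00434). Both were nearly 1 log2 unit lower. The groups did not overlap in either, which held for 47.6% of all genes. Serpinb6b, a serine protease inhibitor gene, fell by 0.58 log2 units (limma adjusted p = 0.0114). With single arrays left out, the median fold change of the list ran from -0.15 without KO replicate 2 to -0.02 without KO replicate 1.

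The granule protease gene Ctsw was at -0.39 (limma adjusted p = 0.0760). The granule membrane and release genes on the list, among them Lamp1 (-0.06), Rab27a (0.23), Unc13d (0.08), Stx11 (-0.05) and Stxbp2 (-0.04), did not pass; they are listed because their products act at the same membranes as Nkg7 and were named after their values were seen. The list median was -0.07 beside 0.02 for all genes, and 0.001 after a further quantile normalization. For the 16 members among the brighter 9969 genes it was -0.06, as it was for all the brighter genes (-0.06). With all 35556 probe sets tested singly, 0 of the 21 passed, where only 39 of all probe sets did.

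Of 10 measured transcription factors of the cytotoxic programme, 2 fell and 2 rose, where 1.05% of all genes were called lower and 1.19% higher; 5 of the 10 had an unadjusted p under 0.05 by the limma test, against 16.6% of all genes. Eomes, a T-box factor of memory CD8 T and NK cells, gave 6.66 and 6.67 in the knockout and 8.12 and 8.11 in the wild type (log2 fold change -1.45, SE 0.09, limma adjusted p = 3.75e-05). Its arrays differed little within each group, with an SD of 0.01. Stat4, which relays IL-12 signals, fell by 0.42 log2 units (limma adjusted p = 0.0493), and Bhlhe40 (0.63, limma adjusted p = 0.0330) and Id2 (0.44, limma adjusted p = 0.0494) rose. The other T-box factor, Tbx21, was at 0.14 (95% interval -0.08 to 0.35), and Runx3 was at 0.06. The list median was 0.10. Eomes passed with each array left out, and without WT replicate 1 it was the only member that did.

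**Figure D4:**
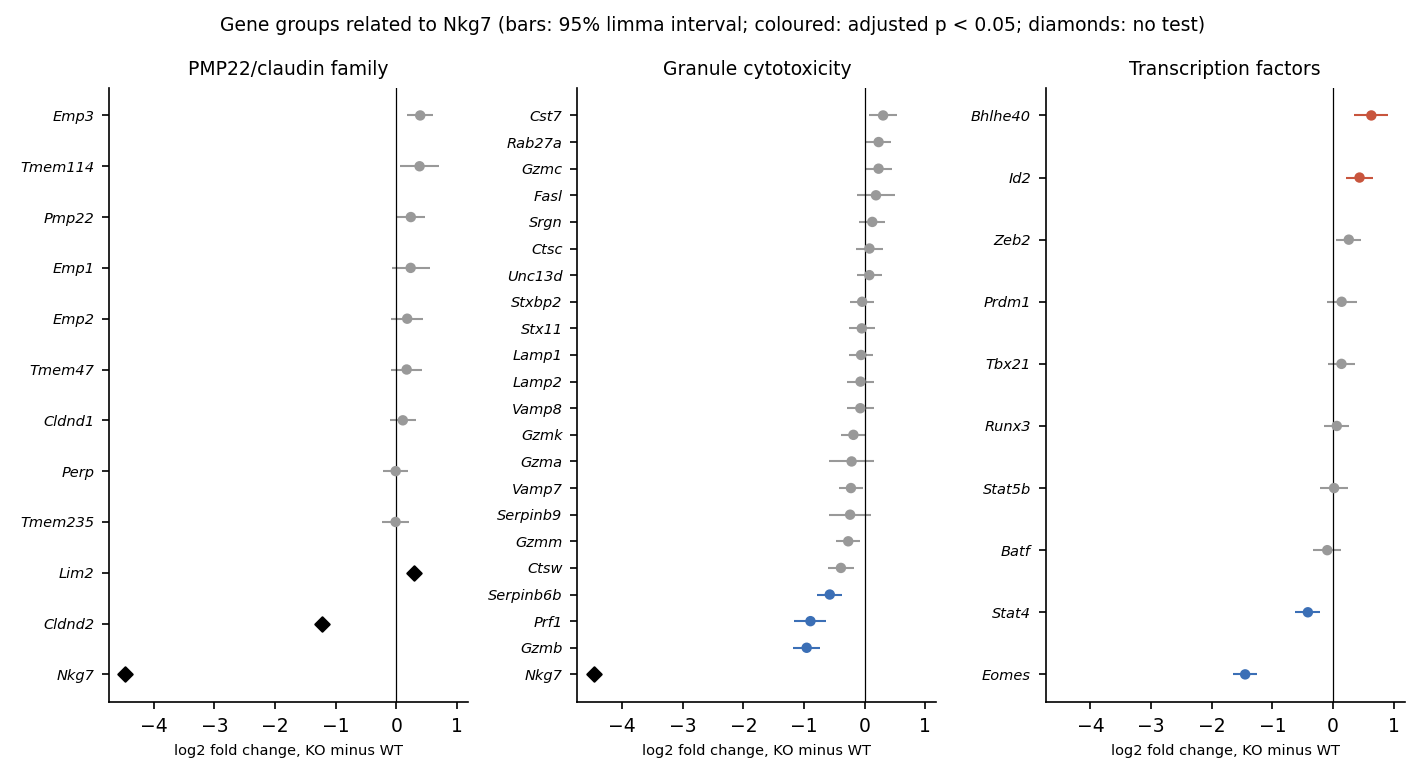
Log2 fold change (KO minus WT) of the PMP22/claudin family, of granule cytotoxicity genes and of transcription factors of the cytotoxic programme. Bars are 95% limma intervals, blue and red mark genes lower and higher at an adjusted p under 0.05, and black diamonds are genes of the locus, given without a test. Nkg7 at -4.47 lies far below Gzmb (-0.96), Prf1 (-0.89) and Eomes (-1.45).

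The partners of Etfb in mitochondrial electron transfer showed 0 calls among 16 measured genes, with 5 at an unadjusted p under 0.05 by the limma test (16.6% of all genes). The median was -0.06 beside 0.02 for all genes, and 0.01 after a further quantile normalization. For the 14 members among the brighter 9969 genes it was -0.09, beside -0.06 for all the brighter genes. Etfa, the other subunit of the same protein, gave 8.57 and 8.34 in the knockout and 8.50 and 8.48 in the wild type (-0.03, 95% interval -0.26 to 0.20), and Etfdh, the dehydrogenase that takes its electrons, was at 0.01 (-0.20 to 0.22). The dehydrogenase genes Gcdh (-0.41, limma adjusted p = 0.0716), Acad10 (-0.32) and Acad11 (-0.26) were lower and Acads (0.42) higher without passing. The value of Etfb, -0.29, lay within the range of these.

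Lens fibre genes, the tissue companions of Lim2, showed 0 calls among 14 measured, with 3 at an unadjusted p under 0.05 by the limma test, against 16.6% of all genes. Of the 14, 13 had positive fold changes like that of Lim2 (10 under each scaling alternative), with a median of 0.17, and 0.08 or 0.09 under those alternatives. The crystallin genes Crybb1, Crybb2 and Cryba2 were at 0.35, 0.33 and 0.29 and the filament gene Bfsp2 at 0.23. Their mean level was 4.23 on KO replicate 1 and 4.04, 3.98 and 3.97 on KO replicate 2 and the wild-type arrays, so KO replicate 1 stood apart. Without KO replicate 2, 4 of them passed.

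NK cells also make Nkg7, and the other cells that a sort could carry along were read from marker lists. Of 12 measured NK cell markers, 2 rose (Cd244a, 0.55, and the signalling adaptor Tyrobp, 0.62) and 1 fell (Eomes, -1.45, also on the list of transcription factors), against 1.19% of all genes called higher and 1.05% called lower. An unadjusted p under 0.05 by the limma test was found for 8 of the 12, against 16.6% of all genes, and these 8 differed in both directions. The other 9 did not pass: Fcer1g was at 0.56, Itga2 at 0.43, Ncr1 at 0.41, Klrb1c at 0.22, Fcgr3 at 0.14, Klre1 at 0.03, Klra8 at -0.09, Gzma at -0.22 and Klrk1 at -0.26. The median of the 12 was 0.18, and their mean level was 4.11 and 4.23 on the knockout arrays and 4.15 and 4.03 on the wild-type arrays, a mean that pools these opposite differences.

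Markers of other blood cells were read in the same way. Of 16 neutrophil and myeloid markers 6 rose, 0 fell and 10 did not pass, against 1.19% of all genes called higher. Those that rose were the granule protein genes Mpo (1.97), Elane (1.60), Ctsg (1.70) and Prtn3 (1.71), with Lyz2 (1.15) and Csf1r (0.58). The neutrophil genes Ngp (0.33), S100a8 (0.30), S100a9 (0.23), Ltf (0.17) and Camp (0.06) did not pass. Nor did Siglecf (0.22), Itgam (0.16), Cd33 (0.10), Cd14 (0.04) and Cd68 (-0.34). The mean level of the 16, which pools all of these, was 4.88 and 4.93 in the knockout against 4.25 and 4.32 in the wild type. Of 11 measured B cell markers 1 rose, Ighm (0.80), and the other 10 did not pass, among them Cd79b (0.51), Cd79a (0.32), Blk (0.22), Ms4a1 (0.01), Cd22 (-0.05), Cr2 (-0.06) and Fcer2a (-0.09). Fold changes were positive for 8 of the 11, and for 6 under each scaling alternative, and the mean level was 4.92 and 4.95 in the knockout against 4.74 and 4.76. The part of NK, myeloid and B cell markers in the lower values of Nkg7 and Cldnd2 was not tested. The 13 T cell identity genes had mean levels of 9.34 and 9.40 in the knockout and 9.45 and 9.47 in the wild type. Their median fold change was -0.07, and all 13 were among the brighter 9969 genes, whose median was -0.06. Thy1 (-0.34), Themis (-0.26), Cd2 (-0.19) and Zap70 (-0.18) had the smallest p and did not pass.

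The genes whose array pattern was closest to that of Nkg7 were found by the root mean square difference of values centred on each gene's own mean over the 4 arrays. A gene with no change at all would stand 2.24 from Nkg7 on this measure. The closest were Rcn3, a calcium-binding protein gene of the secretory pathway (1.11), Klf13 (1.42), Dkkl1 (1.50), Eomes (1.51) and the mast cell protease gene Mcpt1 (1.58). Cldnd2 followed near these at 1.63, whereas Etfb (2.09) and Lim2 (2.39) stood about where an unchanged gene does. The correlations of the 5 closest genes with Nkg7 across the 4 arrays were 0.97 to 1.00, a description over 4 points that share the split into 2 groups. The measure largely follows the difference between the groups, for which Nkg7 was chosen, so it adds no separate evidence.

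Rcn3 gave 4.13 and 4.27 in the knockout and 6.42 and 6.48 in the wild type. It is 76 places after Nkg7 in the gene order, and Dkkl1 is 87 places after it. Rcn3, Klf13 and Dkkl1 lie on chromosome 7, which holds 8.70% of the genes measured, Eomes on chromosome 9 and Mcpt1 on chromosome 14. The 5 were picked by values that carry the group difference, and Klf13 is the targeted gene, so no enrichment is read from this. Of the measured genes of chromosome 7 outside the run of 4, 2.60% were called, against 2.25% of all genes. That share is over the whole chromosome, and the flanks of 50 genes stop short of Rcn3 and Dkkl1. Whether differences gather between Nkg7 and Klf13, 207 places after it, was not tested. The fold differences were 4.77 for Rcn3, 3.10 for Klf13, 2.77 for Dkkl1, 2.73 for Eomes and 2.49 for Mcpt1, against 22.2 for Nkg7. Since Nkg7 had the largest difference of all genes, smaller values here were fixed in advance.

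**Figure D5:**
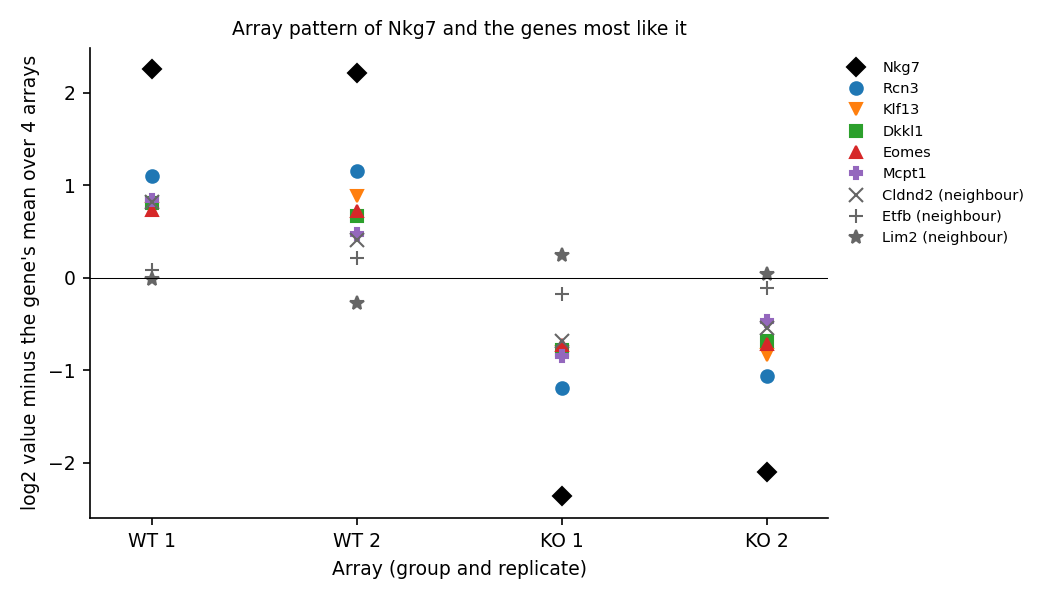
Log2 values centred on each gene's mean over the 4 arrays (y axis) by array (x axis), for Nkg7, the 5 genes most like it and its 3 neighbours. Nkg7 spans 4.47 between the group means, Rcn3 2.25, and Cldnd2 1.22, while Etfb and Lim2 stay near 0.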

How the data were processed

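The deposited table holds log2 probe-set values of 35556 probe sets on 4 arrays; per the submitters' processing notes the authors used RMA and Partek, with no versions given. RMA equalises the arrays by quantile normalization, so it would remove a shift shared by most genes, and it compresses folds of dim genes. Per the labels' protocols, 200 ng of RNA with an integrity number above 9 was labelled by a whole-transcript method. Array medians over all probe sets were 4.31 to 4.37. Over the 19938 genes, whose medians were used for centring, they were 4.71 and 4.66 in KO and 4.59 and 4.61 in WT. GEO's platform annotation paired 21789 probe sets with 1 gene symbol, 1621 with several and listed none for 12146; symbols were updated by gene identifier to RefSeq names (GRCm38.p6, 21698 matched), which also gave the gene order. Each gene was read from its brightest single-symbol probe set (highest 4-array mean), with no filter on level.

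KO was compared with WT by limma 3.58.1 in R 4.3.3 (genotype only, two-sided, Benjamini-Hochberg over 19938 genes, threshold 0.05). Prior degrees of freedom came to 8.06, and each test leans on the spread pooled over genes. The fit was tested on simulated data. The number of arrays limits the precision. The 4 genes, the gene lists and the tests were chosen with earlier results of these data known. Named were Klf13, the 4 genes, the 3 nearest measured genes on each side, per list up to 4 genes of smallest p, and the 5 genes most like Nkg7; others are marked or serve to check a label or complete a pathway. Alternatives were averaging the probe sets of a gene, a further quantile normalization, median centring, the brighter 9969 genes, a variance trend with robust moderation, all probe sets, a replicate block, flanks of 5, 25 and 50 genes and each array left out. Replicate numbers were not used to pair arrays. Protein sequences were not used here.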

Additional observations from a re-analysis of the deposited data

How the results depend on the processing

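The log2 fold changes of the 4 genes kept their direction with the probe sets of a gene averaged, after a further quantile normalization, after median centring, with the replicate block and with each array left out. With single arrays left out they ran from -4.60 to -4.34 for Nkg7, -1.43 to -1.02 for Cldnd2, -0.36 to -0.22 for Etfb and 0.16 to 0.42 for Lim2. Etfb was at -0.21 after a further quantile normalization and at -0.38 after median centring, against -0.29 as reported; both moves were smaller than the SD of its wild-type arrays and larger than that of its knockout arrays. The number of genes called over the whole table was 1088 after centring, 831 with a variance trend and robust moderation and 39 with all probe sets; without single arrays it ran from 264 to 1536.

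Of the 20 flanking genes, 1 was called lower after centring, and 0 to 1 without single arrays; 0 were called higher there. With 25 genes on each side 1 was called higher, and with 50 on each side 1 lower and 2 higher. Without single arrays the calls were 0 to 1 in the PMP22/claudin list, 2 to 5 in granule cytotoxicity, 1 to 2 in transcription factors, 0 to 4 in lens, 0 to 1 in T cell identity, 2 to 3 in NK, 1 to 2 in B cell and 5 to 8 in myeloid lists. After quantile normalization, where 329 genes were called in all, they were 1 in the PMP22/claudin list, 2 in transcription factors and 2 in B cell markers. Centring gave 2 in electron transfer and 1 in T cell identity. Of the brighter 9969 genes 606 were called in all. Among them were 1 in the PMP22/claudin list, 1 in electron transfer and 2 in B cell markers. The variance trend gave the same counts for these lists and 1 in T cell identity. With all probe sets 0 granule genes, 1 transcription factor, 1 NK, 0 B cell and 2 myeloid markers passed. The causes were not tested.

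Same-numbered arrays did not deviate together (r = 0.0074 across genes, which are not independent replicates), and the labels give no pairing. With the replicate number as a block, Nkg7 was at -4.47, Cldnd2 at -1.22, Etfb at -0.29 and Lim2 at 0.29, and 1187 genes were called, 2 of them in the flank, 2 in the PMP22/claudin list, 2 in electron transfer, 1 in lens, 1 in T cell identity, 6 in NK and 2 in B cell markers. Detection calls and signal over background were not used here, which limits what can be said of dim genes such as Cldnd2 and Lim2.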
